A study of Mus musculus with 6 samples.

Results

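HOX genes encode the homeodomain transcription factors that give cells along the body axis their position, and they were read here in rib chondrocytes, the cartilage cells of the ribs. The HOX genes were taken as every row of the expression table whose symbol begins with Hoxa, Hoxb, Hoxc or Hoxd and ends in a paralogue number. This gave 33 of 27734 genes, of which 15 averaged 1 FPKM or more across the 6 libraries and 18 did not. FPKM counts fragments relative to the length of the gene model and the number mapped in the library, so levels of genes of different length can be set side by side.

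The study asked what the loss of Jab1 does to chondrocyte differentiation. Jab1, listed under its gene symbol Cops5, is the catalytic subunit of the COP9 signalosome, which removes the ubiquitin-like protein NEDD8 from cullin ubiquitin ligases. Mut libraries came from Jab1flox/flox; Col2a1-Cre (cKO) mice, in which the Col2a1 promoter drives Cre recombinase in cells of the cartilage lineage, and WT libraries came from wild-type mice. The labels do not say which floxed or Cre alleles the WT mice carried. Both groups held 3 libraries of chondrocytes from E18.5 ribs, taken after enzyme digestion without culture, and were sequenced as stranded total RNA. The labels do not say whether the libraries of a group were separate embryos, litters or pools, so the p-values set differences against library-to-library spread alone, which may be technical.

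In mouse, the HOX genes lie in 4 clusters, A to D, and genes at the same place in different clusters form a paralogue group with a shared number. Low numbers lie at the 3′ end of a cluster and have their anterior limit of expression nearer the head, and high numbers lie at the 5′ end and are used toward the tail. In the mouse axial skeleton, genes of paralogue group 6 promote rib formation, genes of group 9 help to pattern the ribs, and genes of group 10 suppress ribs in the lumbar region. The homeodomain binds DNA mainly through the recognition helix, the third, and the homeoboxes of the members are much alike, which bears on how well short reads tell them apart.

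The targeted gene Cops5 had 17.0, 18.01 and 17.2 FPKM in Mut libraries 0, 1 and 2, against 42.3, 39.8 and 40.1 FPKM in WT libraries 0, 1 and 2, a log2 fold change of -1.18 (SE 0.06, adjusted p = 6.48e-04). Column totals ranged from 571180 to 631534 FPKM over the 6 libraries. The Y-linked gene Ddx3y had 7.78, 46.1 and 36.0 FPKM in the Mut libraries and 0.157, 0.0281 and 0.450 FPKM in the WT libraries. Xist, expressed from the inactive X chromosome, had 37.3, 0.0176 and 0.0244 FPKM in the Mut libraries and 63.1, 64.6 and 65.9 FPKM in the WT libraries. Sex-linked RNA thus moved with genotype, and Mut library 0 held both Ddx3y and Xist RNA, so sex and genotype cannot be told apart in these libraries. Of 16 listed chondrocyte markers found, all 16 passed the minimum of 1 FPKM, and their summed level was 8896 to 13915 FPKM in the Mut libraries and 12983 to 15083 FPKM in the WT libraries. The most abundant of them were Col9a3, a collagen IX chain, at 1852 ± 411 FPKM in Mut and 2438 ± 299.6 FPKM in WT, and Lect1 (chondromodulin), at 1774 ± 332 FPKM in Mut and 2437 ± 132 FPKM in WT. Gapdh, a gene that every cell uses, was listed at 0.436 to 0.697 FPKM in the Mut libraries and at 0.217 to 0.334 FPKM in the WT libraries, so a low value in this table can be a failed estimate.

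Hoxa4 was the only HOX gene that passed the test, and Hoxa5 was an abundant member. Hoxc8 had the lowest ratio of Mut to WT among tested members, and Hoxa10 is of a group whose analysed members were near 0. Homeoboxes of these 4 members are shown here because the results turn on them. Each is the 180-base homeobox of a GENCODE M21 transcript on the coding strand, 5′ to 3′, and the capitals mark codons 42 to 58, which encode the recognition helix.
Hoxa4: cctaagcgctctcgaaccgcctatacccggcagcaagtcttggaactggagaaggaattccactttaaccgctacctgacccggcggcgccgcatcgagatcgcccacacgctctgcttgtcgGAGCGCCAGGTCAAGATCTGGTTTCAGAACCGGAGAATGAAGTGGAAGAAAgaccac
Hoxa5: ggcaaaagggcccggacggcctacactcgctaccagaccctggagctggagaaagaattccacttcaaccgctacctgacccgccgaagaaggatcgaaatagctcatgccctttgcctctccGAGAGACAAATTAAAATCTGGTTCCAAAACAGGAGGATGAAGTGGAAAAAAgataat
Hoxc8: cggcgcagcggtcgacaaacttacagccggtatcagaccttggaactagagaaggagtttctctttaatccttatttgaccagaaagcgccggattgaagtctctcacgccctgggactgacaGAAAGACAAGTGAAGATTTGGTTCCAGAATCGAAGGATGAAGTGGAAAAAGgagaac
Hoxa10: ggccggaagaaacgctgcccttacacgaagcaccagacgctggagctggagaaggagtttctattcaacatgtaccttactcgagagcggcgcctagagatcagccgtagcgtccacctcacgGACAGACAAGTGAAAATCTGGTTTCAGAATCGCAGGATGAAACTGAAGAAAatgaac
The homeobox of Hoxa4 was identical to that of Hoxa5 at 71.1% of bases, to that of Hoxc8 at 66.1% and to that of Hoxa10 at 60.6%. Across the 33 members, pairs of the same paralogue group were identical at 72.8 to 93.9% of homeobox bases (33 pairs, median 81.7%), and other pairs at 46.1 to 88.9% (495 pairs, median 62.2%).

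Reads were 50 bases long, so the transcripts of each member were searched for 50-base words that also occur in transcripts of other genes. On the same strand, 27 of 33 members and 12 of the 15 tested members shared under 1.5% of their words. Hoxa4, Hoxa5, Hoxa7, Hoxb2, Hoxc4 and Hoxc6 shared no word. Words shared with a member of another cluster were found in 4 members. The HoxD genes Hoxd3 and Hoxd4 shared 60.2% and 46.8% of their words, mostly with each other and the overlapping gene Gm28230, Hoxa2 shared 12.7% and Hoxa3 7.42%, mostly with the read-through gene Gm28308, and Hoxc5 shared 3.92% with Hoxc10. The values of these genes are uncertain to the extent that the authors' counting could split such reads. Antisense overlap was also found: Hoxb3 had 51.4% and Hoxb2 25.9% of its words on the strand opposite Hoxb3os, Hoxa3 21.7% opposite other transcripts, Hoxa7 18.7% opposite Hoxaas3 and Hoxa4 13.3% opposite Gm29430. Whether the authors' counting used the strand is not stated.

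Most HOX RNA in both groups came from the HoxA cluster. Of the members analysed, those at or above 1 FPKM were 8 of 10 in HoxA, 3 of 9 in HoxB, 4 of 8 in HoxC and 0 of 6 in HoxD. Some genes of the highest paralogue groups were not analysed, so these counts are not cluster sizes and the HOX totals leave those genes out. The HOX genes together summed to 122, 107 and 112 FPKM in the Mut libraries and to 131, 133 and 120 FPKM in the WT libraries. The highest Mut sum lay above the lowest WT sum, so the groups overlapped. These sums were 0.0172 to 0.0204% of all FPKM in the Mut libraries and 0.0207 to 0.0234% in the WT libraries, ranges that did not overlap. HoxA held 69.2 ± 1.05% of the HOX total in Mut and 65.1 ± 2.46% in WT (SD, n = 3 each), and HoxB held 11.5 ± 1.07% in Mut and 10.8 ± 1.73% in WT.

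HoxC and HoxD were the clusters whose sums did not overlap between the groups. HoxC summed to 20.5, 20.5 and 21.1 FPKM in the Mut libraries and to 28.7, 37.7 and 24.5 FPKM in the WT libraries. Every Mut library was below every WT library. Most of that difference of means was Hoxc8, at 9.27 ± 1.59 FPKM in Mut and 17.96 ± 3.97 FPKM in WT. HoxD summed to 0.904, 1.31 and 1.14 FPKM in the Mut libraries and to 0.658, 0.854 and 0.859 FPKM in the WT libraries, most of it Hoxd8. These sums are a description and were not tested.

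**Figure D1:**
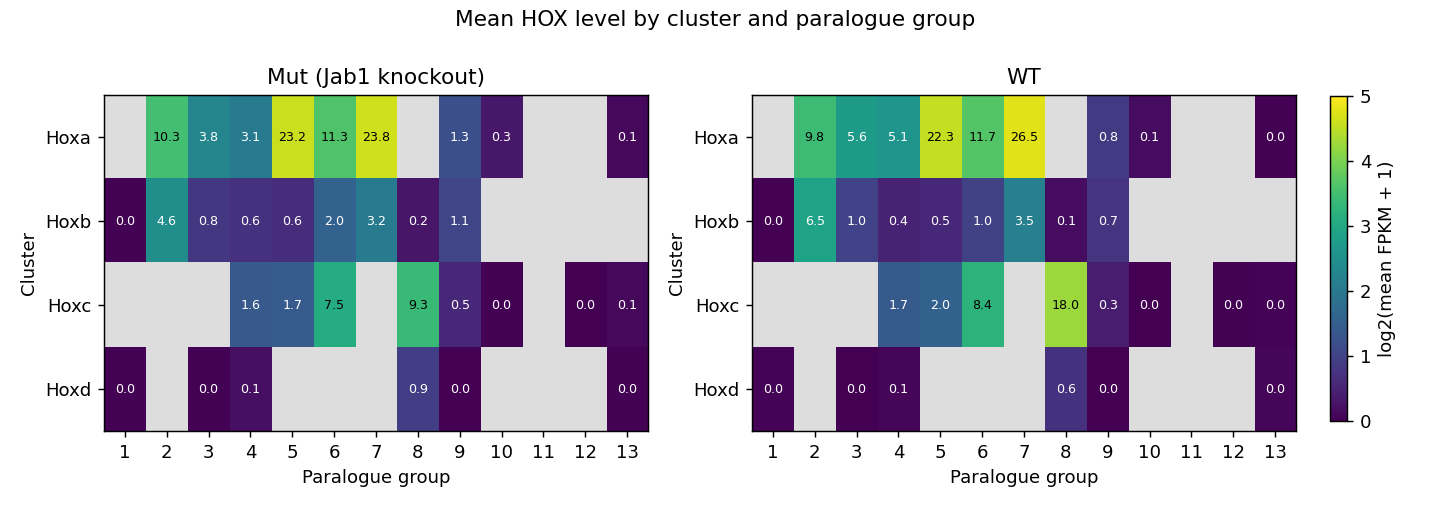
Mean level of each HOX gene in Mut (left panel) and WT (right panel), with clusters as rows and paralogue groups 1 to 13 as columns; colour is log2 of the mean plus 1, printed numbers are mean FPKM over 3 libraries, and grey cells hold no gene or one not analysed or not reported here. The highest levels lie from group 5 to group 8 in HoxA and HoxC and at Hoxa2, while the HoxD genes and the genes of groups 10, 12 and 13 that are coloured stay under 1 FPKM in both panels.

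The middle of the paralogue series was the most abundant. Members of groups 5 to 9 held 76.3 ± 0.453% of the HOX total in Mut and 75.2 ± 3.23% in WT, and members of groups 1 to 4 held 23.3% in Mut and 24.6% in WT. By group sum, group 7 had 27.0 FPKM in Mut and 30.0 FPKM in WT, group 5 had 25.5 FPKM in Mut and 24.8 FPKM in WT, and group 6, the rib-promoting group, had 20.8 FPKM in Mut and 21.1 FPKM in WT. The sums of groups 5, 6 and 7 overlapped between the groups of libraries. The sums of group 8 did not overlap, with 10.4 FPKM in Mut and 18.7 FPKM in WT, nor did those of group 3, with 4.60 FPKM in Mut and 6.61 FPKM in WT, or of group 4, with 5.55 FPKM in Mut and 7.24 FPKM in WT. Groups 1 to 4 together summed to 26.4 FPKM in Mut and 31.4 FPKM in WT, again with no overlap. Group 8 was mostly Hoxc8, while Hoxb8 and Hoxd8 averaged higher in Mut (0.240 and 0.907 FPKM) than in WT (0.116 and 0.638 FPKM). In group 4, Hoxa4 and Hoxc4 averaged lower in Mut, and Hoxb4 and Hoxd4 higher. In group 3, Hoxa3 and Hoxb3 averaged lower in Mut, and Hoxd3 was near 0. These sums were not tested, and single genes did not overlap for 32.2% of all genes tested. Group 9 had 2.86 FPKM in Mut and 1.84 FPKM in WT. Of groups 10 to 13, which pattern lumbar, sacral and tail levels, Hoxa10, Hoxc10, Hoxc12, Hoxa13, Hoxc13 and Hoxd13 were analysed here, and none of these 6 exceeded 0.305 FPKM in any library. Other genes of groups 10 to 13 were not analysed here. The low end was not empty, since group 2 summed to 14.8 FPKM in Mut and 16.3 FPKM in WT, mostly Hoxa2.

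The order of the tested members reported here by mean level was Hoxa7, Hoxa5, Hoxc8, Hoxa6, Hoxa2, Hoxc6, Hoxb2, Hoxa3, Hoxa4, Hoxb7, Hoxc5, Hoxc4, Hoxb6 and Hoxa9. The first 6 held 72.5 to 77.7% of the HOX total in each library. Neighbours in this order overlapped in their ranges over the 6 libraries at every step but 1, between Hoxb7 and Hoxc5. Hoxc8 held rank 5 in Mut and rank 3 in WT. Within groups the median coefficient of variation of the tested members was 12.5% in Mut and 13.6% in WT. Single genes varied more, up to 60.3% for Hoxb6 in Mut and 38.8% for Hoxc6 in WT.

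**Figure D2:**
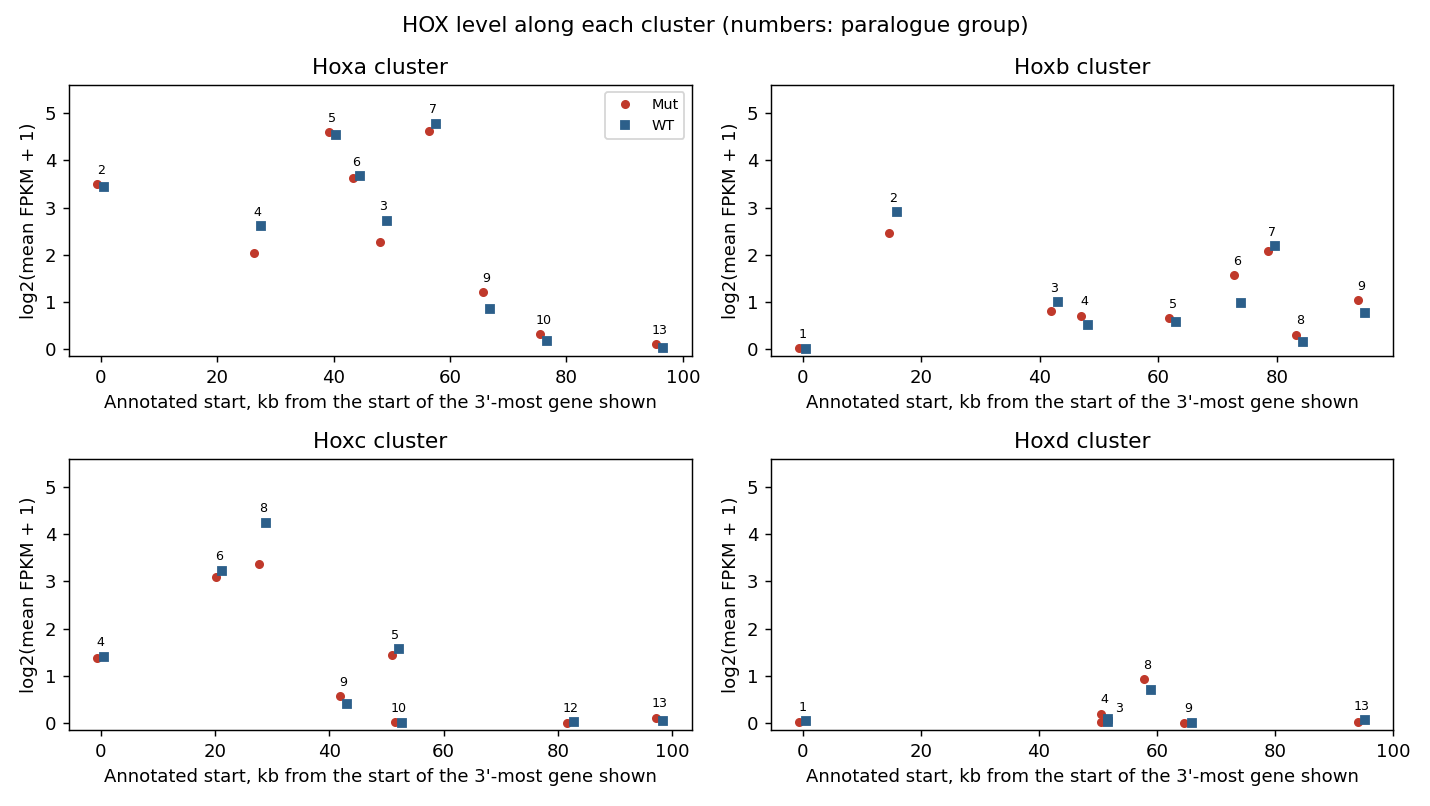
Mean level in Mut (circles) and WT (squares), as log2(mean FPKM + 1) on the y axis, against the distance of the annotated gene start from that of the 3′-most gene shown in its cluster (x axis, kb), with 1 panel per cluster and each point labelled with its paralogue number; circles and squares of a gene share a position and are set slightly apart. Levels peak in the middle of HoxA and are low toward its 5′ end, and the HoxD genes shown lie near 0 other than Hoxd8; the starts of Hoxa3 and Hoxc5 are those of long upstream transcripts.

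Hoxa7, the most abundant member and a gene of the thoracic region, had 22.3, 23.5 and 25.7 FPKM in the Mut libraries and 28.8, 28.3 and 22.3 FPKM in the WT libraries. Hoxa5, whose loss in mouse gives an extra rib at the last cervical vertebra, had 28.9, 20.01 and 20.5 FPKM in the Mut libraries and 20.98, 22.7 and 23.3 FPKM in the WT libraries. Hoxa6, a member of the rib-promoting group, had 12.9, 9.79 and 11.3 FPKM in the Mut libraries and 14.9, 9.67 and 10.7 FPKM in the WT libraries. All 3 genes overlapped between the groups and none passed the test. Their log2 fold changes on the log2(FPKM + 1) scale, Mut minus WT, were -0.14 for Hoxa7 (adjusted p = 0.505), 0.03 for Hoxa5 (adjusted p = 0.918) and -0.04 for Hoxa6 (adjusted p = 0.926). Their 95% intervals were -0.43 to 0.15 for Hoxa7, -0.34 to 0.40 for Hoxa5 and -0.47 to 0.40 for Hoxa6, so these intervals bound the difference without showing that the levels were alike.

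Of the 15 tested HOX genes, Hoxa4 alone passed the threshold, and it fell in Mut. Hoxa4 takes part in setting the form of cervical vertebrae, and its loss in mouse can give a rib on the last of them. It lies in HoxA on the minus strand at chr6:52189671-52191753 (mm10, GENCODE M21). It had 2.84, 3.49 and 3.08 FPKM in the Mut libraries and 4.58, 4.96 and 5.73 FPKM in the WT libraries. Every Mut library was below every WT library. The means were 3.14 ± 0.328 FPKM in Mut and 5.09 ± 0.589 FPKM in WT (SD, n = 3 each), a log2 fold change of -0.55 (SE 0.11, 95% interval -0.82 to -0.29, adjusted p = 0.0446). In bulk RNA, fewer cells that express a gene and less of its RNA per cell cannot be told apart. Of 14012 genes tested, 363 (2.59%) were lower and 487 (3.48%) were higher in Mut, beside 1 lower and 0 higher among 15 HOX genes. The Hoxa4 call was lost when any 1 of the 6 libraries was left out (log2 fold change -0.62 to -0.48, adjusted p 0.0800 to 0.140), and with a term for Ddx3y level the log2 fold change was -0.94 (adjusted p = 0.211).

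Hoxa3 and Hoxc8 stood next, just beyond the threshold. Hoxa3, which acts in the pharyngeal arches and, with Hoxd3, in the upper cervical vertebrae, had 3.86, 3.46 and 4.16 FPKM in the Mut libraries and 5.04, 5.61 and 6.16 FPKM in the WT libraries. No Mut value reached a WT value, and the log2 fold change was -0.45 (SE 0.10, 95% interval -0.70 to -0.20, adjusted p = 0.0599). Its adjusted p was 0.0313 when libraries were weighted by their quality and 0.0350 when protein-coding genes alone were tested, and it was 0.0971 to 0.184 with 1 library left out, 0.123 with no minimum and 0.535 with a term for Ddx3y level. Hoxc8, whose loss in mouse gives an extra rib at the first lumbar vertebra, lies on the plus strand at chr15:102990607-102994111. It had 7.51, 9.70 and 10.6 FPKM in the Mut libraries and 19.1, 21.2 and 13.5 FPKM in the WT libraries. The groups did not overlap, although WT library 2 lay nearer to the Mut libraries than to the other two WT libraries. Its ratio of means, Mut over WT, was 0.516, the lowest of the tested members, with a log2 fold change of -0.87 (SE 0.20, 95% interval -1.36 to -0.39, adjusted p = 0.0605). With protein-coding genes alone tested, the adjusted p of Hoxc8 was 0.0214, with 1 library left out it was 0.0670 to 0.167, and with a term for Ddx3y level it was 0.309.

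**Figure D3:**
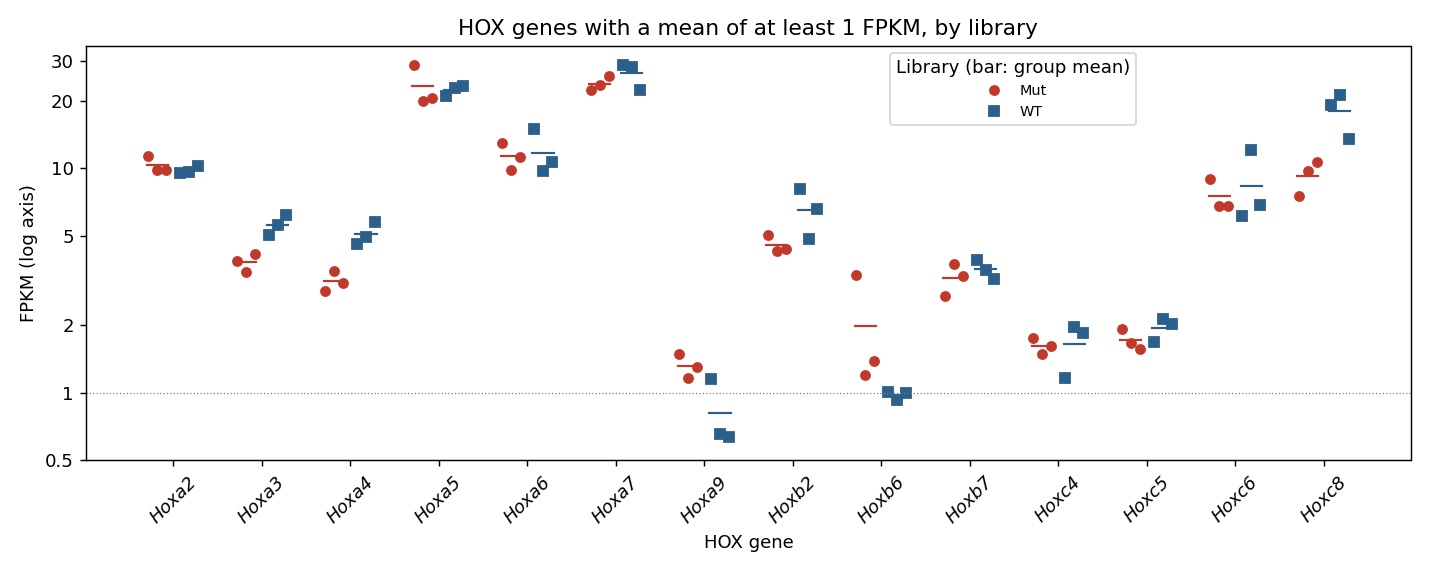
Level of 14 tested HOX genes (y axis, FPKM, log scale) in each library, Mut points left of WT points for each gene, in cluster order; short bars are group means over 3 libraries. Mut and WT points are apart for Hoxc8, Hoxa3 and Hoxa4, where Mut is lower, and for Hoxb6 and Hoxa9, where Mut is higher, and they mingle for the other 9 genes.

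A pair of genes went the other way without passing the test. Hoxb6, which promotes ribs when expressed along the mouse axis, had 3.34, 1.201 and 1.38 FPKM in the Mut libraries and 1.01, 0.926 and 1.0004 FPKM in the WT libraries. The Mut values were all higher, but Mut library 0 held most of the difference, and the log2 fold change was 0.52 (SE 0.28, adjusted p = 0.322). Hoxa9, of the group that patterns ribs, had 1.49, 1.16 and 1.31 FPKM in the Mut libraries and 1.15, 0.656 and 0.636 FPKM in the WT libraries. The lowest Mut library lay just above the highest WT library, and the log2 fold change was 0.37 (adjusted p = 0.280).

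The remaining tested genes overlapped between the groups. Hoxa2, which sets the identity of the second pharyngeal arch, had 11.3, 9.82 and 9.79 FPKM in the Mut libraries and 9.50, 9.65 and 10.2 FPKM in the WT libraries, a log2 fold change of 0.06 (95% interval -0.13 to 0.25, adjusted p = 0.653). Hoxb2, a hindbrain gene, had 5.02, 4.28 and 4.36 FPKM in the Mut libraries and 8.09, 4.82 and 6.57 FPKM in the WT libraries, a log2 fold change of -0.41 (adjusted p = 0.213). Hoxc6 had 8.96, 6.78 and 6.77 FPKM in the Mut libraries and 6.14, 12.1 and 6.85 FPKM in the WT libraries. WT library 1 alone was high for Hoxc6, and its log2 fold change was -0.09 (adjusted p = 0.853). Hoxb7, a thoracic gene like Hoxa7, had 2.69, 3.74 and 3.29 FPKM in the Mut libraries and 3.91, 3.504 and 3.22 FPKM in the WT libraries (log2 fold change -0.11, adjusted p = 0.643). Hoxc5, a paralogue of Hoxa5, had 1.91, 1.66 and 1.57 FPKM in the Mut libraries and 1.68, 2.14 and 2.03 FPKM in the WT libraries (log2 fold change -0.12, adjusted p = 0.595). The ranges of both genes overlapped widely. Hoxc4, a paralogue of Hoxa4, had 1.76, 1.49 and 1.61 FPKM in the Mut libraries and 1.16, 1.96 and 1.84 FPKM in the WT libraries, a log2 fold change of -0.01 (95% interval -0.41 to 0.40, adjusted p = 0.985).

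Over the 15 tested HOX genes, 10 had a negative and 5 a positive log2 fold change, with a median of -0.09 beside a median of -0.0039 over all genes tested. Unadjusted p was under 0.05 for 3 of 15 HOX genes (20%), beside 24.7% of all genes tested. The groups did not overlap for 5 of 15 HOX genes (33.3%), beside 32.2% of all genes tested. Of these 5, Hoxb6 and Hoxa9 averaged under 1 FPKM in WT and passed the minimum through their Mut values. Both shares of the HOX genes were near or under the background of the table. At the minimum for testing, Hoxa9 stood just above with a mean of 1.07 FPKM and Hoxb3 just below with 0.880 FPKM.

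**Figure D4:**
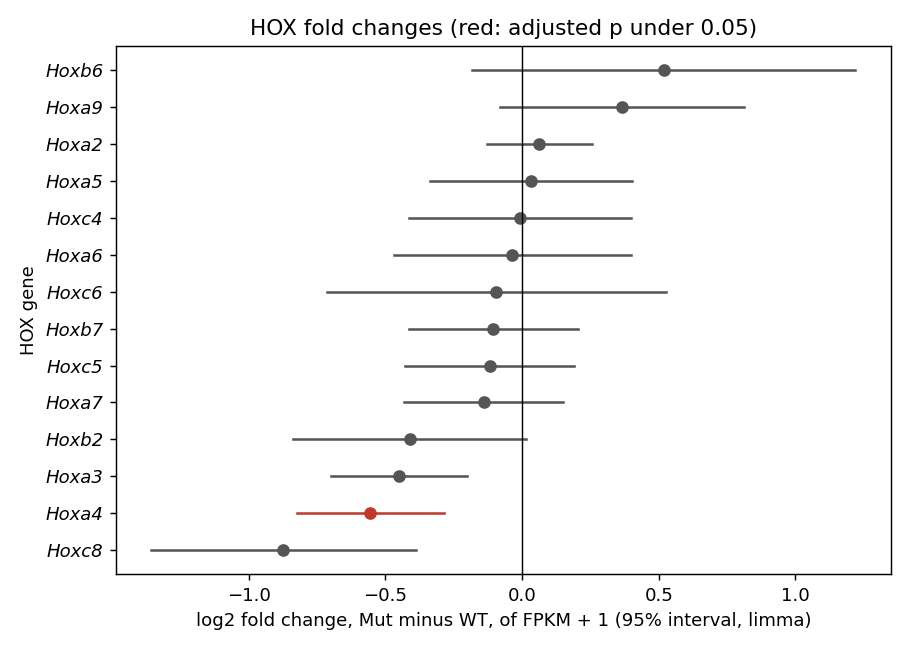
Log2 fold change, Mut minus WT, on the log2(FPKM + 1) scale with 95% intervals (x axis), for 14 tested HOX genes ordered by fold change (y axis, lowest at the bottom). The intervals of Hoxa3, Hoxa4 and Hoxc8 lie below 0 and those of the other 11 genes cross 0; Hoxa4 is the one with an adjusted p under 0.05.

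The 18 members under the minimum were not tested. Hoxb3, the paralogue of Hoxa3, had 0.893, 0.723 and 0.663 FPKM in the Mut libraries and 0.783, 0.762 and 1.46 FPKM in the WT libraries. Hoxb9, a paralogue of Hoxa9 with a mean of 0.879 FPKM, had 1.398, 1.07 and 0.6901 FPKM in the Mut libraries and 0.945, 0.678 and 0.489 FPKM in the WT libraries. Both genes overlapped between the groups. Hoxd8 had 0.813, 1.06 and 0.849 FPKM in the Mut libraries and 0.539, 0.612 and 0.764 FPKM in the WT libraries, and Hoxb4, the paralogue of Hoxa4, had 0.651, 0.609 and 0.671 FPKM in the Mut libraries and 0.326, 0.339 and 0.6001 FPKM in the WT libraries. In Hoxd8 and Hoxb4, and in Hoxc13 at 0.0951 FPKM or less, every Mut value lay above every WT value. No test was made at these levels, and the groups did not overlap for 32.2% of all genes tested. That share covers genes averaging 1 FPKM or more, and none was taken over genes below that minimum. Hoxb5 had 0.953, 0.413 and 0.3805 FPKM in the Mut libraries and 0.273, 0.622 and 0.591 FPKM in the WT libraries, and Hoxc9 had 0.238, 0.795 and 0.409 FPKM in the Mut libraries and 0.504, 0.3005 and 0.174 FPKM in the WT libraries, with overlap in both. Hoxa10, the more abundant analysed member of the rib-suppressing group, had 0.267, 0.279 and 0.214 FPKM in the Mut libraries and 0, 0.0808 and 0.305 FPKM in the WT libraries. Of the 33 members, 15 were under 1 FPKM in every library, 10 under 0.3 FPKM in every library, and 11 were listed at 0 in at least 1 library. Among HoxD genes without Hoxd8, the highest value in any library was 0.267 FPKM.

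Promoter sequence was set beside these levels for the 18 members with a promoter in the RefSeq table (19 promoters of 300 bases, GRCm38.p6). The median number of CpG dinucleotides was 9 in 7 promoters of members at or above 1 FPKM and 17 in 12 promoters of members below it, and 16 of 19 HOX promoters had more than the median of 7 in all 32851 promoters. A promoter of Hoxa5, at chr6:52204538-52204837 on the minus strand, and that of Hoxd1, at chr2:74762730-74763029 on the plus strand, are shown because both hold 29 CpG while their mean levels were 22.7 and 0.0214 FPKM. The capitals mark CpG.
Hoxa5: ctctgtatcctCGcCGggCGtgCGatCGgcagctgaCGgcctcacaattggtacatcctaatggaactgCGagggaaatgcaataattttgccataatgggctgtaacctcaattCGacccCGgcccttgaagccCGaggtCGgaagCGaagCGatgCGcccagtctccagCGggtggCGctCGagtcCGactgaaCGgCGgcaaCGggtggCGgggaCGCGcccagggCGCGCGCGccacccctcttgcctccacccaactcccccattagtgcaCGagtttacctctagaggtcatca
Hoxd1: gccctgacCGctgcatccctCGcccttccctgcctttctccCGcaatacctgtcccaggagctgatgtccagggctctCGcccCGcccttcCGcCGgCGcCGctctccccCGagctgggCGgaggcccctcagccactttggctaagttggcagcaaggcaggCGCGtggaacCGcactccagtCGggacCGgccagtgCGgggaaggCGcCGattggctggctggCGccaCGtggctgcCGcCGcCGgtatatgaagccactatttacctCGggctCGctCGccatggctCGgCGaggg
The motif TGATNNAT, which HOX proteins bind together with PBX proteins, was searched on both strands. It was found in 3 of 19 HOX promoters (15.8%), those of Hoxa2, Hoxb1 and Hoxb8, and in 8.85% of all promoters.

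The HOX clusters also hold microRNA genes, whose mature sequences are given from RefSeq with the seed, bases 2 to 8, in capitals. The pairs fall into a miR-10 and a miR-196 family by shared seed.
mmu-miR-10a-5p: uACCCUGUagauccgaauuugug
mmu-miR-10b-5p: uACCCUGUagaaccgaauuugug
mmu-miR-196a-5p: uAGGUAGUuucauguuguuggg
mmu-miR-196b-5p: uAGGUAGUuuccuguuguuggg
In mouse, miR-196 is known to target Hoxb8 and other HOX messages. The match to its seed, ACTACCT, occurred in the 3′ UTRs of 9 of 33 HOX members (27.3%), among them Hoxa4, Hoxa5, Hoxa7, Hoxa9, Hoxb1, Hoxb6, Hoxb7 and Hoxc8, and in 6.10% of 21037 genes with a 3′ UTR in GENCODE M21. Sites of the 2 genes with the most negative fold changes are shown, with the seed match in capitals.
Hoxa4 site: agcactggccatcgACTACCTt
Hoxc8 site: cactcacaactctaACTACCTg
Hoxc8 site: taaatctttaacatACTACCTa
A match describes letters only. Hoxa5, Hoxa9 and Hoxb6, with positive log2 fold changes, also held a match, while Hoxa3, with a negative one, held none. Of the microRNA genes, Mir10a was listed at 0, 15.2 and 0 FPKM in the Mut libraries and at 0, 0 and 18.4 FPKM in the WT libraries, and rows for the others were not analysed here.

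Among the noncoding genes of the clusters, Gm27868 rose in Mut. It is a short RNA gene annotated at chr6:52162010-52162111 inside the last part of Hotairm1, a noncoding RNA gene next to Hoxa2. Both are annotated on the plus strand, so a read from one may also fit the other. How the authors' counting assigned such reads is not stated, so the 2 values are uncertain to that extent. FPKM is relative to gene length, so in a gene as short as Gm27868 a few reads can give a high value. Mir10a, also short, ranged from 0 to 18.4 FPKM within the WT libraries. Read counts were not analysed here, so how many reads lie behind the Gm27868 values is not known. Gm27868 had 51.6, 51.2 and 21.2 FPKM in the Mut libraries and 1.44, 0 and 3.51 FPKM in the WT libraries, a log2 fold change of 4.14 (SE 0.63, adjusted p = 0.0257). Hotairm1 itself went the other way, at 4.35, 5.61 and 3.66 FPKM in the Mut libraries and 8.09, 8.02 and 6.31 FPKM in the WT libraries, a log2 fold change of -0.62 that did not pass (adjusted p = 0.0834). The Gm27868 call was lost without any 1 library other than WT library 2 (adjusted p 0.0581 to 0.0944), with a pseudocount of 0.1 (0.0638) and with a term for Ddx3y level (0.337). The short RNA genes Gm27477 and Gm27861 of the same cluster overlapped between the groups, with log2 fold changes of -0.32 and -0.51. Hoxb3os, antisense to Hoxb2 and Hoxb3, had 0.453, 0.442 and 0.410 FPKM in the Mut libraries and 0.547, 0.836 and 0.897 FPKM in the WT libraries, all Mut values below all WT values, at levels under the minimum for testing.

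**Figure D5:**
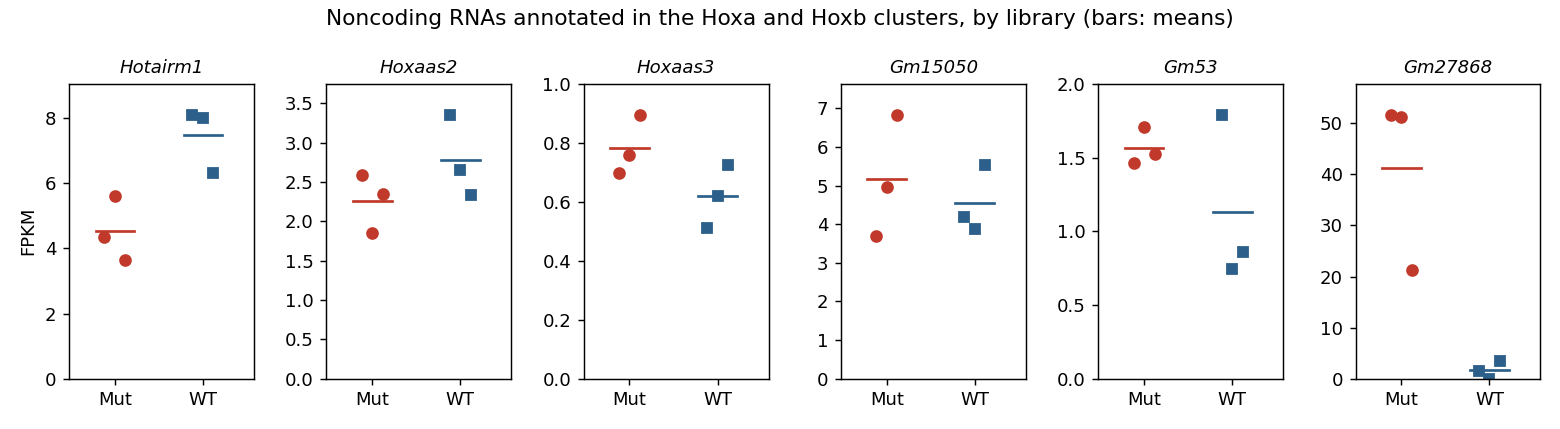
Level of 6 noncoding genes of the HOX clusters (y axis, FPKM, a separate linear scale from 0 in each panel) in each library, Mut points left of WT points, with bars at group means over 3 libraries. Gm27868 lies at 21.2 FPKM or more in the 3 Mut libraries and at 3.51 FPKM or less in the 3 WT libraries, and Hotairm1 is lower in every Mut library, while Hoxaas2, Hoxaas3, Gm15050 and Gm53 overlap between the groups.

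Partners and regulators of HOX genes were read from lists. The TALE cofactors, MEIS and PBX proteins that bind DNA together with HOX proteins, gave 0 of 8 tested members past the threshold, 4 of 8 with unadjusted p under 0.05 beside 24.7% of all genes tested, and a median log2 fold change of -0.09. Meis1 had 20.8, 19.3 and 18.1 FPKM in the Mut libraries and 20.997, 20.2 and 18.6 FPKM in the WT libraries. Meis2 had 11.5, 13.3 and 11.8 FPKM in the Mut libraries and 16.8, 16.9 and 15.3 FPKM in the WT libraries, with no overlap and a log2 fold change of -0.39 (adjusted p = 0.0515). Of 9 tested upstream regulators, among them the retinoid receptors Rara, Rarg, Rxra and Rxrb, 0 passed and 2 had an unadjusted p under 0.05. Their most abundant members were Rarg and Rxrb, with log2 fold changes of -0.14 (adjusted p = 0.400) and 0.20 (adjusted p = 0.205).

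Polycomb proteins keep HOX genes silent outside their domain and trithorax proteins keep them active within it. Of 28 tested Polycomb genes, 1 rose, 1 fell and 8 had an unadjusted p under 0.05, with a median log2 fold change of 0.01. Over all genes tested, 3.48% rose, 2.59% fell and 24.7% had an unadjusted p under 0.05. Bmi1, a core subunit of Polycomb repressive complex PRC1 whose loss in mouse shifts vertebral identity, rose: it had 14.5, 16.1 and 15.2 FPKM in the Mut libraries and 10.9, 11.6 and 11.3 FPKM in the WT libraries, a log2 fold change of 0.41 (adjusted p = 0.0307). Pcgf2, its paralogue, fell: it had 3.21, 3.08 and 3.57 FPKM in the Mut libraries and 4.93, 5.27 and 4.46 FPKM in the WT libraries, a log2 fold change of -0.46 (adjusted p = 0.0473). The most abundant members, Rbbp7 and Rbbp4, had log2 fold changes of 0.09 (adjusted p = 0.495) and 0.04 (adjusted p = 0.710). Of 16 tested trithorax genes and H3K27 demethylases, 1 fell, 0 rose and 4 had an unadjusted p under 0.05, with a median log2 fold change of -0.26. The gene that fell was Kdm6b, which removes methyl groups from the Polycomb mark on histone H3, with 2.38, 1.72 and 1.42 FPKM in the Mut libraries and 3.65, 3.93 and 3.51 FPKM in the WT libraries (log2 fold change -0.74, adjusted p = 0.0461). Dpy30 and Psip1 were the most abundant members, with log2 fold changes of 0.04 (adjusted p = 0.886) and -0.20 (adjusted p = 0.127).

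Most genes of other positional programmes were under 1 FPKM. Of 17 axial and rib skeleton regulators found, 10 were under 1 FPKM and 0 of 7 tested passed, and the most abundant, Tgfb2 and Foxc1, had log2 fold changes of -0.31 (adjusted p = 0.289) and 0.05 (adjusted p = 0.666). Of 19 limb patterning genes found, 12 were under 1 FPKM in mean, and 1 of the 7 tested rose. Tbx5, En1, Msx1 and Tbx2 averaged under 1 FPKM in WT and passed the minimum through their Mut values, so no median is given for the list. That gene was Prrx1, a homeobox gene of limb and other skeletal mesenchyme, at 32.8, 33.2 and 28.9 FPKM in the Mut libraries and 18.4, 19.5 and 21.8 FPKM in the WT libraries (log2 fold change 0.64, adjusted p = 0.0232). Its paralogue Prrx2 had a log2 fold change of 1.13 (adjusted p = 0.0634). Of 15 markers of the HOX-negative cranial neural crest found, 11 were under 1 FPKM and 0 of 4 tested passed. The exception in level was Alx1, with 36.7, 51.7 and 49.5 FPKM in the Mut libraries and 78.4, 73.7 and 60.7 FPKM in the WT libraries, which did not overlap (log2 fold change -0.62, adjusted p = 0.0883). Pou3f3, next in level, had a log2 fold change of -0.53 (adjusted p = 0.0704). Over these 7 positional and regulatory lists, 4 of 79 tested genes passed, beside 850 of 14012 over all genes, the 4 being Bmi1, Pcgf2, Kdm6b and Prrx1. None of the 79 passed when WT library 0, 1 or 2 or Mut library 1 or 2 was left out, and 4 passed without Mut library 0.

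Some markers of other cell types moved with genotype, and their part in the HOX values was not tested. The counts below stand beside 2.59% of all genes tested that fell and 3.48% that rose. All 5 tested erythroid markers fell, with a summed level over the 8 found of 14.9 to 49.4 FPKM in the Mut libraries and 196.3 to 221 FPKM in the WT libraries. Of 7 tested macrophage and leukocyte markers, S100a8 and S100a9 fell, and the 10 found summed to 19.9 to 53.9 FPKM in the Mut libraries and 104 to 270 FPKM in the WT libraries. Of 6 tested skeletal muscle markers 1 fell, Tnnt3, and the 12 found summed to 54.0 to 78.5 FPKM in the Mut libraries and 150 to 175 FPKM in the WT libraries. Of 13 tested perichondrium and fibroblast markers, Twist1 rose and Dcn and Lum fell, and the 16 found summed to 1133 to 1684 FPKM in the Mut libraries and 1574 to 1879 FPKM in the WT libraries. The 2 chondrocyte markers that passed, Comp and Matn3, both fell. No marker of osteoblasts, endothelium or neural and Schwann cells passed among 8, 3 and 2 tested, and those lists summed to 60.1 to 239, 2.51 to 13.2 and 161 to 191 FPKM in the Mut libraries and to 75.8 to 199.8, 3.50 to 5.88 and 172 to 216 FPKM in the WT libraries. No marker was at 0 in all 6 libraries.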

How the data were processed

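Per the labels' protocols, RNA of freshly isolated rib chondrocytes was depleted of ribosomal RNA, made into stranded libraries and sequenced as single-end reads of 50 bases, and CLC Genomics Workbench was used. STAR, Cufflinks, Cuffdiff and build mm10 are named in the submitters' processing notes. Versions, the use of strand in counting and any scaling between libraries are not given in the sources used here. Expression values are FPKM as the authors deposited them, 1 table of 27734 genes and 6 columns. Counting intervals are not given, since read depth was not analysed here.

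Libraries are named by column number, per the file headers. The labels number them 0, 1 and 3, so 4 columns matched a sample and column 2 of each group matched its group alone. The title of WT library 0 holds day 30 and those of the other labelled libraries day 24. What the day marks is not stated.

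Values were transformed as log2(FPKM + 1), and the 14012 genes averaging 1 FPKM or more were fitted with limma 3.58.1 under R 4.3.3 (lmFit, eBayes with trend). Tests were two-sided with Benjamini-Hochberg adjustment over all genes tested, and rose or fell is written where the adjusted p was below 0.05. The scale understates fold changes of low genes. The fit was tested on simulated data. The smallest p of an exact permutation test of 3 against 3 libraries is 0.1, so that test was not used. Gene identifiers matched GENCODE M21 for 27578 genes (99.4%). The rule named all HOX genes, those at 1 FPKM or more with values, genes of the clusters, Cops5 and, of each list, members past the threshold and the 2 most abundant. Some further genes were chosen after their values were seen. The HOX genes and the lists were chosen with earlier results of these data known. Alternatives were pseudocounts of 0.1 and 0.5, no minimum, a minimum of 5 FPKM, median-of-ratios and quantile scaling, library weights, a replicate block and leaving out each library. A Ddx3y term and a test of protein-coding genes alone were added after the data were seen. Values of some list genes under that rule are not printed. Values of 1 tested HOX gene, and some sequences, are not reported here, while counts and sums keep that gene.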

Additional observations from a re-analysis of the deposited data

How the results depend on the processing

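HOX genes past the threshold numbered 1, Hoxa4, and 850 of all genes passed. With pseudocounts of 0.1 and 0.5, median-of-ratios scaling and quantile normalization, Hoxa4 was again the 1 HOX gene called. With no minimum, 0 HOX genes, 461 of all genes and 2 genes of the 7 positional lists passed, the lists holding 4 before. With a minimum of 5 FPKM, 0 HOX genes passed of 7 tested, Hoxa4 being under that minimum in mean. With library weights, 2 HOX genes, 1488 of all genes and 10 list genes passed. Leaving out each library in turn gave 0 to 0 HOX genes, 174 to 666 of all genes and 0 to 4 list genes, and leaves 1 group with 2 libraries. The following 2 settings were chosen after seeing the data: with Ddx3y level as a covariate, 0 HOX genes, 140 of all genes and 0 list genes passed, and with protein-coding genes only, 3 HOX genes, 1373 of all genes and 10 list genes passed. The causes were not tested. Samples with the same column number did not deviate together (correlations -0.033, -0.042 and -0.023). These values gave no sign that the numbers pair the samples, but with 3 libraries per group they cannot exclude it. With the replicate block, 0 HOX genes, 60 of all genes and 0 list genes passed. In that limma fit the adjusted p was 0.152 for Hoxa4 and 0.137 for Gm27868. Read depth was not analysed here, so levels near 0 carry no detection limit.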
